A study of Mus musculus with 6 samples.

Results

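The genes described here are 4 glutathione peroxidases (Gpx1, Gpx3, Gpx4 and Gpx6), the metallothioneins Mt1 and Mt2, and 4 targets of the transcription factor NRF2 (Nqo1, Gclm, Txnrd1 and Srxn1). They were taken by gene symbol and are 10 of the 46603 genes of the count table. Several were picked because of their difference between genotypes, and Gpx6 was included as a large rise. Their differences are therefore given as descriptions, without a test.

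RNA-Seq was performed on CD11B+ cells, which are mainly macrophages, monocytes and neutrophils, selected from mouse kidneys with magnetic beads. The animals were male, 10 to 12 weeks old, and were studied on day 3 after clamping of the vessels of both kidneys for 28 minutes (IRI-AKI, a model of acute kidney injury). In PTEC DN RAR mice (3 libraries), PEPCK-Cre removes a stop cassette ahead of a truncated, dominant negative retinoic acid receptor alpha (RARaT403X) inserted at Rosa26. Cre– control mice (3 libraries) carried that Rosa26 allele without Cre. The PEPCK promoter drives Cre in proximal tubular epithelial cells (PTECs), so the cell type targeted is not the cell type selected by the beads. Between 29318041 and 46517005 reads were counted on genes per library, and 3 reads corresponded to between 0.0636 and 0.101 CPM (read counts scaled to a common library size, with TMM factors).

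The preparations held macrophage transcripts at high levels and also tubular and endothelial transcripts, and the latter were more abundant in PTEC DN RAR. Itgam, which encodes CD11B, lay between 1737 and 1995 CPM in Cre– controls and between 980.3 and 1366 CPM in PTEC DN RAR, and fell by 0.64 on the log2 scale (SE 0.14, edgeR quasi-likelihood test, adjusted p = 0.00818). The summed level of 10 macrophage markers was 16314 to 17455 CPM in Cre– controls and 14417 to 18128 CPM in PTEC DN RAR, and overlapped. Of 18 proximal tubule markers 17 rose, and their summed level went from 992–1325 CPM to 3082–4769 CPM. All 8 markers of the thick ascending limb and distal tubule rose (1181–1613 against 4173–7990.3 CPM), as did all 7 endothelial markers (78.3–115 against 228–276 CPM). Of 8 monocyte markers 7 fell (3161–3634 against 1492–1572 CPM), and 5 of 10 neutrophil markers fell (471–849 against 299–426 CPM). Of 24 pan-leukocyte genes, which leukocyte types share, 23 passed the filter on low counts and 7 fell (14521–15546 against 11783–13742 CPM). The 6 erythroid markers summed to 1.41–13.5 CPM in Cre– controls and 1.7–5.26 CPM in PTEC DN RAR. Mitochondrial transcripts took 5.03% to 8.77% of counts in Cre– controls and 10.38% to 12.08% in PTEC DN RAR. In bulk RNA of this kind, fewer cells of a type and less RNA per cell cannot be told apart.

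**Figure D1:**
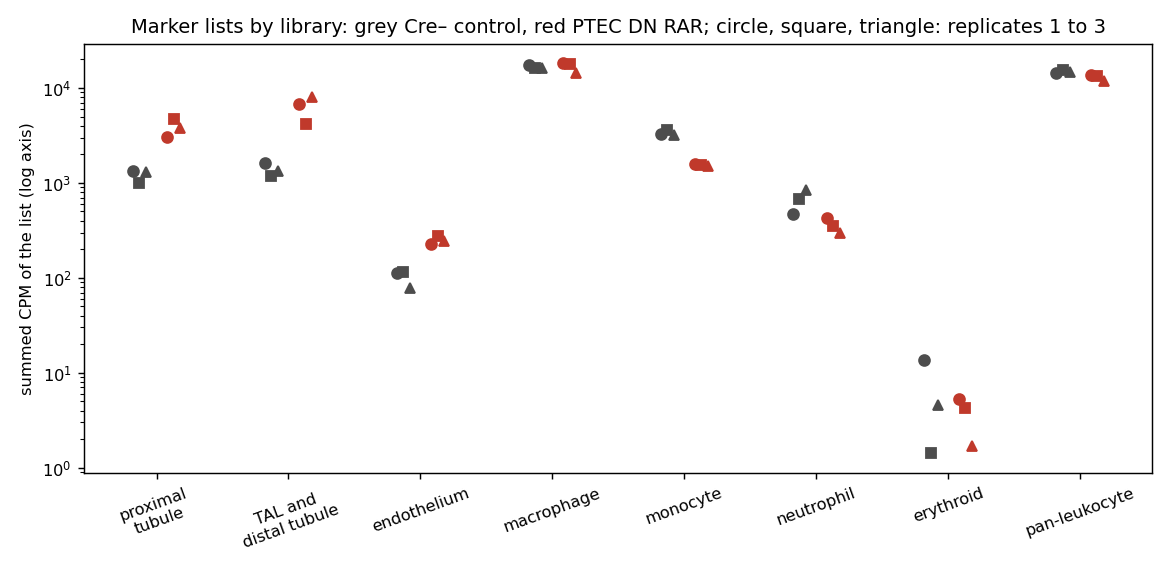
Summed CPM (log axis) of each marker list in the 6 libraries, with gray for the 3 Cre– controls and red for the 3 PTEC DN RAR mice. Tubular and endothelial lists were higher in PTEC DN RAR without overlap (proximal tubule 3082–4769 against 992–1325 CPM). Monocyte, neutrophil and pan-leukocyte lists were lower, and macrophage lists overlapped.

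Glutathione peroxidases reduce hydrogen peroxide and lipid hydroperoxides with electrons from glutathione, and in the mouse the products of Gpx1, Gpx2, Gpx3 and Gpx4 carry selenocysteine at the active site, encoded by a UGA codon that elsewhere stops translation, while those of Gpx5, Gpx6, Gpx7 and Gpx8 carry cysteine. Metallothioneins are small cysteine-rich proteins that bind zinc and copper, and their genes are switched on by the zinc sensor MTF1 through metal response elements (MREs). NRF2 is held at low levels by KEAP1 and, when released by oxidants, activates genes for glutathione and thioredoxin metabolism through antioxidant response elements (AREs), which BACH1 can occupy as a repressor. In the kidney, GPX3 is made by the proximal tubule and secreted into plasma, whereas GPX6 was described in the olfactory epithelium.

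The members differ in the codon at the active site, which is shown because it sets Gpx6 apart from the other peroxidases among the members. These sequences come from the GENCODE M21 transcripts on GRCm38, 5′ to 3′, with the active-site codon in capitals and up to 12 bases on either side.
Gpx1: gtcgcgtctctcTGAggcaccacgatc
Gpx3: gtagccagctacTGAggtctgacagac
Gpx4: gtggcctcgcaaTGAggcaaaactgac
Gpx6: gtggcatccttcTGTggcctgacagct
Txnrd1: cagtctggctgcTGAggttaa

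The TGA codons of Gpx1, Gpx3 and Gpx4 are codon 47 (chr9:108339451-108339453), codon 73 (chr11:54907256-54907258) and codon 73 (chr10:80054737-80054739), each on the plus strand. Gpx6 has a cysteine codon at the matching codon 73 (chr13:21313777-21313779, plus strand), which is the substitution A3T relative to Gpx3, counted from 1 at the first base of the codon. Of the 24 bases flanking the codon, Gpx6 and Gpx3 have 16 in common. Txnrd1, the cytosolic thioredoxin reductase, has its TGA as codon 498 of 500, just ahead of the last amino acid and the stop (chr10:82896037-82896039). The coding sequences of Nqo1, Gclm, Srxn1, Mt1 and Mt2 have no in-frame TGA ahead of the stop.

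All 10 members passed the filter on low counts. The 6 libraries separated by genotype, without overlap, for 5 of the 10. For Gpx3, Gpx6 and Nqo1 the PTEC DN RAR libraries were the higher group, and for Gclm and Txnrd1 the lower group. Among all 15440 genes that passed the filter, 53.4% did not overlap (29.2% higher and 24.2% lower in PTEC DN RAR). By the edgeR test, 40.6% had an adjusted p under 0.05, 23.6% with a higher and 17.1% with a lower level. The median log2 difference was 0.00 over the members and 0.04 over all genes. Scaling on 24 pan-leukocyte genes instead of TMM moved the median of all genes to 0.24, a shift of 0.20 that applies in like measure to the differences given below. Under that scaling, 30.6% of genes were called higher and 4.71% lower, and the lower share of calls went from 42.0% to 13.4%.

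**Figure D2:**
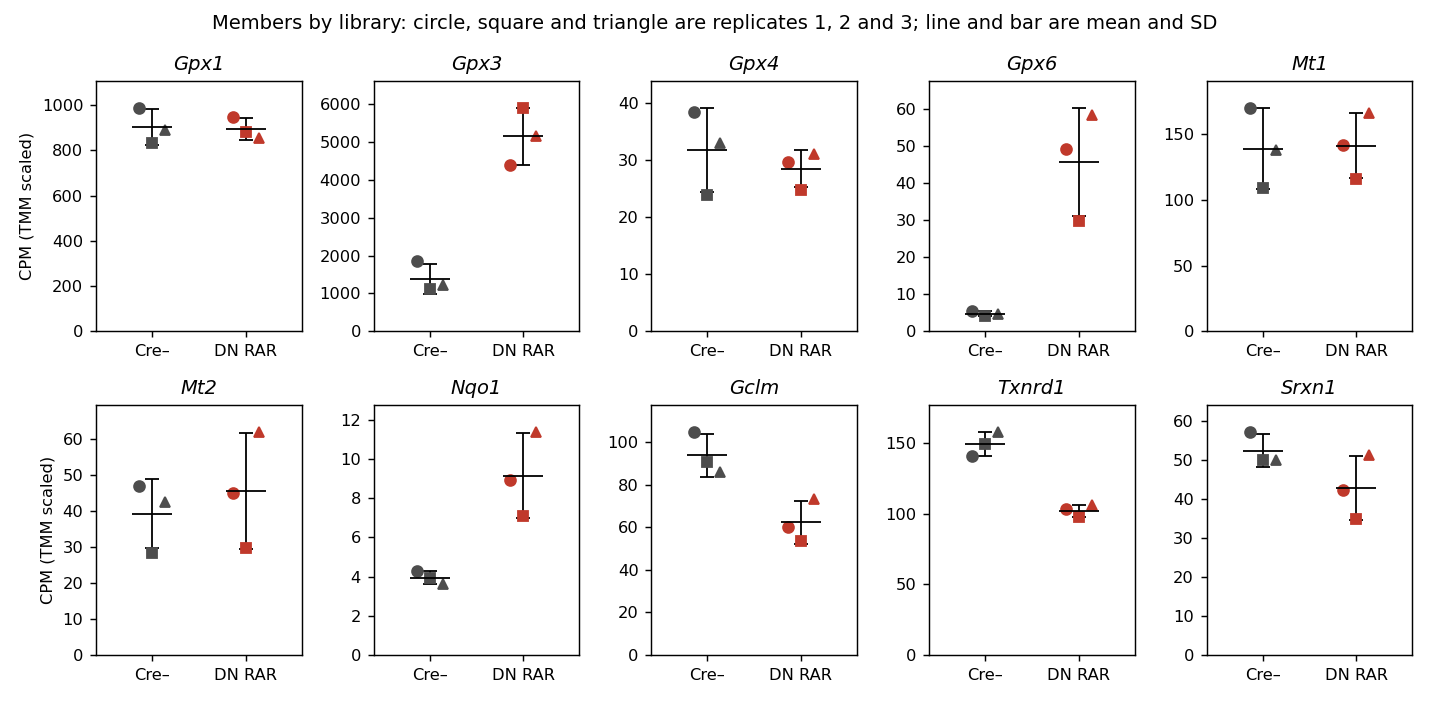
CPM (TMM) of the 10 members in the 3 Cre– control (gray) and 3 PTEC DN RAR (red) libraries, each point a mouse, with bars for the mean and SD of each genotype and an axis from 0 in every panel. Gpx3, Gpx6 and Nqo1 sit higher and Gclm and Txnrd1 lower in PTEC DN RAR without overlap, and the other 5 members overlap.

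Per length of exon, Gpx3 and Gpx1 had the highest levels of the 10 in both genotypes. In RPKM, which divides CPM by exon length in kilobases, Cre– controls had 767 ± 219 for Gpx3 and 627 ± 54.1 for Gpx1 (SD, n = 3 here and throughout), and the libraries of this pair overlapped. Mt1 (111 ± 24.6) and Mt2 (66.8 ± 16.5) followed, and Txnrd1, Srxn1, Gpx4 and Gclm lay between 14.9 and 21.1, with each overlapping its neighbor in the order. Gpx6 (3.47 ± 0.489) and Nqo1 (2.54 ± 0.205) were at the bottom. In PTEC DN RAR, Gpx3 stood at 2842 ± 416 RPKM, apart from Gpx1 at 622 ± 33.4. Gpx6 had moved up to 33.4 ± 10.7 RPKM, above Gpx4 (16.6 ± 1.93), Srxn1, Txnrd1 and Gclm (9.91 ± 1.61), while Nqo1 remained last at 5.87 ± 1.38. Mt1 (113 ± 20) and Mt2 (77.5 ± 27.6) overlapped in PTEC DN RAR.

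Gpx3 (ENSMUSG00000018339, chr11:54902453-54910377, plus strand) encodes the secreted plasma peroxidase. It had 1844, 1109 and 1219 CPM in Cre– controls 1, 2 and 3 and 4395, 5902 and 5162 CPM in PTEC DN RAR 1, 2 and 3. The lowest PTEC DN RAR library was thus above the highest control, and the spread among controls came mainly from control 1. Mean levels were 1391 ± 396 and 5153 ± 753 CPM, a log2 difference of 1.89 (SE 0.21) or 3.71-fold.

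Gpx6 (ENSMUSG00000004341, chr13:21312125-21319624, plus strand) was at 5.43, 4.09 and 4.72 CPM in the controls, against 49.1, 29.7 and 58.3 CPM in PTEC DN RAR. PTEC DN RAR 2, which had the most Gpx3, had the least Gpx6 of its group. Means were 4.75 ± 0.67 and 45.7 ± 14.6 CPM, a log2 difference of 3.26 (SE 0.25) or 9.58-fold. None of the 50-base stretches of its transcript recurred in another annotated transcript, and the same held for Gpx3.

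Gpx1 (ENSMUSG00000063856, chr9:108338903-108340343), the cytosolic and mitochondrial peroxidase present in most cells, gave 988, 833 and 890.4 CPM in the controls, against 949, 882 and 856 CPM in PTEC DN RAR. The PTEC DN RAR range lay inside the control range. The log2 difference was -0.01 (SE 0.10), and was 0.19 under pan-leukocyte scaling, a change of sign.

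Gpx4 (ENSMUSG00000075706, chr10:80047166-80056439), which reduces lipid hydroperoxides in membranes and restrains ferroptosis, had 38.5, 23.9 and 33.1 CPM in the controls, against 29.7, 24.8 and 31.1 CPM in PTEC DN RAR. The groups overlapped, with a log2 difference of -0.16 (SE 0.17) that became 0.04 under pan-leukocyte scaling. Its level is uncertain, because 68.9% of the 50-base stretches of its transcript recur in the pseudogene Gpx4-ps2 or in AC122253.3, and reads that matched several places were not counted. Of the 4 other peroxidases listed, Gpx2 and Gpx5 had no read in any library. Gpx7 (0.974 ± 0.132 against 1.13 ± 0.355 CPM, adjusted p = 0.627) and Gpx8 (3.21 ± 0.375 against 5.16 ± 2.08 CPM, adjusted p = 0.0921) did not pass the test, with Gpx8 at an unadjusted p of 0.045 and an adjusted p of 0.049 under pan-leukocyte scaling. Without PTEC DN RAR 2 the log2 difference of Gpx8 was 0.95 in place of 0.69 and passed the threshold, and without PTEC DN RAR 3 it was 0.31.

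Gpx3 and Gpx6 differed in the order of the PTEC DN RAR libraries, and Nqo1 had the order of Gpx6. Over the 6 libraries, the 5 genes with the highest Pearson r of log2 CPM with Gpx3 were Kcnmb1 (0.9994), Slc37a4 (0.9989), F13b (0.9986), Slc5a2 (0.9985) and Ppp1r37 (0.9984). Of these, Kcnmb1 was scarce, at 0.302 to 0.966 CPM over the 6 libraries. Slc5a2 is the glucose transporter SGLT2, and Slc37a4 carries glucose 6-phosphate into the endoplasmic reticulum. For Gpx6 the 5 genes were Casr (0.9999), Egfl6 (0.9998), Mturn (0.9994), Glod5 (0.9994) and Slc9a3 (0.999). Casr is the calcium-sensing receptor and Slc9a3 the sodium-hydrogen exchanger NHE3. The r values are descriptive, since the 6 libraries share the split by genotype. Of 15439 genes, 1240 for Gpx3 and 1247 for Gpx6 had r above 0.95.

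Defining tubular markers moved with both genes. Slc34a1, the phosphate transporter of the proximal tubule, had 225, 141 and 182 CPM in the controls, against 643, 933 and 731 CPM in PTEC DN RAR, and its r was 0.9949 with Gpx3 and 0.9453 with Gpx6. Umod, uromodulin of the thick ascending limb, had 1263, 865 and 1036 CPM in the controls, against 5002, 2894 and 5708 CPM in PTEC DN RAR, and its r was 0.9919 with Gpx6 and 0.9242 with Gpx3. PTEC DN RAR 2 was thus highest for Slc34a1 and Gpx3 and lowest of its group for Umod and Gpx6. Lrp2, the endocytic receptor megalin of the proximal tubule, had an r of 0.9268 with Gpx3 and 0.8905 with Gpx6. Slc34a1 rose by 2.07 (SE 0.20, adjusted p = 0.000275), Lrp2 by 1.67 (SE 0.23, adjusted p = 0.001) and Umod by 2.10 (SE 0.26, adjusted p = 0.000631) on the log2 scale.

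The ratio of member reads to marker reads was a measure chosen after the values were seen. Gpx3 gave 8.19, 7.87 and 6.69 reads per Slc34a1 read in the controls, against 6.83, 6.33 and 7.06 in PTEC DN RAR. These ranges overlapped, as did those of Gpx3 reads per Umod read, at 1.46, 1.28 and 1.18 in the controls and 0.879, 2.04 and 0.904 in PTEC DN RAR. Gpx6 gave 0.43, 0.473 and 0.456 reads per 100 Umod reads in the controls, against 0.981, 1.03 and 1.02 in PTEC DN RAR. Within each genotype this ratio varied little, and the groups were apart (means 0.453 ± 0.0218 and 1.01 ± 0.0245). Per 100 Slc34a1 reads, Gpx6 ranged from 2.41 to 2.9 in Cre– controls and was 7.63, 3.18 and 7.97 in PTEC DN RAR. The part of tubular RNA in the levels of Gpx3 and Gpx6 was not tested.

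**Figure D3:**
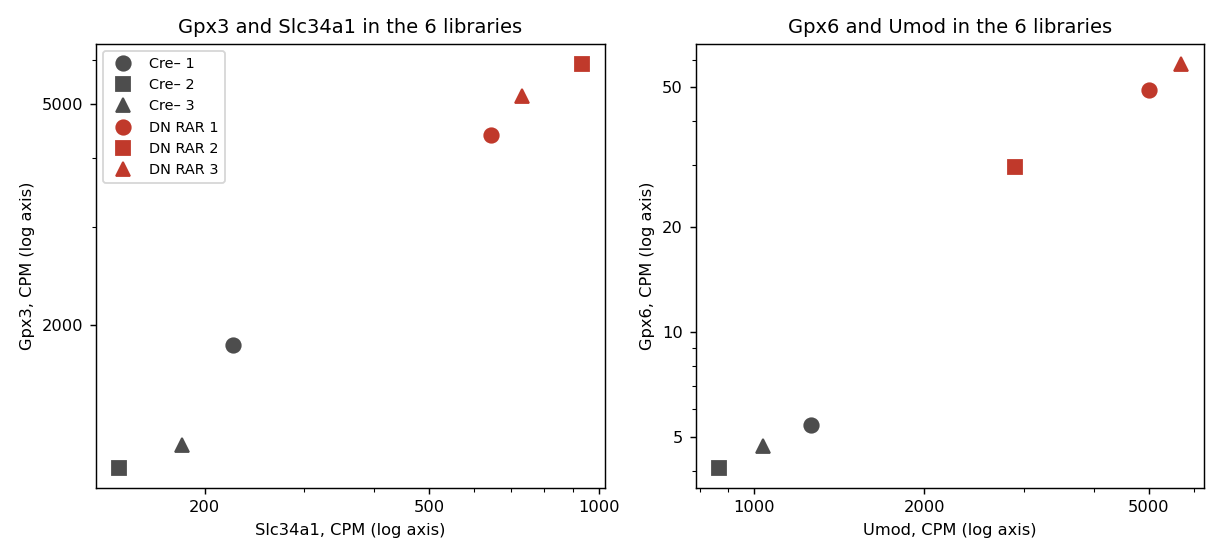
Gpx3 against Slc34a1 (left) and Gpx6 against Umod (right), in CPM on log axes, with 1 point for each of the 6 libraries and a symbol shape for each replicate number. In both panels the libraries of the 2 genotypes are apart, and PTEC DN RAR 2 is the highest of its group on the left (Gpx3 5902 CPM) and the lowest on the right (Gpx6 29.7 CPM).

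Mt1 (ENSMUSG00000031765, chr8:94179082-94180327) and Mt2 (ENSMUSG00000031762, chr8:94172664-94173568) lie 5513 bp apart on the plus strand. Their coding sequences on GRCm38 are shown, with the TGC and TGT codons for cysteine in capitals, because the number and place of these metal-binding residues are what the pair shares.
Mt1: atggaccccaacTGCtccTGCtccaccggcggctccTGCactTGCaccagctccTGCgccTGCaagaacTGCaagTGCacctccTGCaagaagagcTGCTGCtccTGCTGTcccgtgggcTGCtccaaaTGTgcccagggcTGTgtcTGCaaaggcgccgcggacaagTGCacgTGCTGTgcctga
Mt2: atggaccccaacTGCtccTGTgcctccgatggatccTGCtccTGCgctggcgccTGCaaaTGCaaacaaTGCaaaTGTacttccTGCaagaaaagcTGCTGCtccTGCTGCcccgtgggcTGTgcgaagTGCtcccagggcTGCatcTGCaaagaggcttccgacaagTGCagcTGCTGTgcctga

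Each has 61 codons ahead of the stop, of which 20 encode cysteine, at the same 20 positions. Of 186 bases 148 (79.6%) are equal, and no 50-base stretch of either transcript recurs in another gene, so reads of the pair can be told apart. An antisense gene, Gm45774, overlaps Mt2, and whether the counting used strand is not given in the sources used here.

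Neither metallothionein separated the genotypes. Mt1 had 170.0, 109 and 138 CPM in the controls, against 142, 116 and 166 CPM in PTEC DN RAR, a log2 difference of 0.02 (SE 0.18). Mt2 had 46.9, 28.4 and 42.5 CPM in the controls, against 45.0, 29.6 and 62.1 CPM in PTEC DN RAR, a log2 difference of 0.21 (SE 0.26). In each genotype, mouse 2 had the lowest level of both genes. The ratio of Mt1 to Mt2 reads was 3.63, 3.83 and 3.24 in the controls, against 3.15, 3.91 and 2.67 in PTEC DN RAR, and overlapped. Leaving out any 1 mouse kept the log2 difference between -0.17 and 0.19 for Mt1 and between -0.12 and 0.44 for Mt2.

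In the RefSeq promoter sequences (GRCm38.p6, 250 bases ahead of the start site and 50 bases after it), all 10 members had an entry, with 15 windows in all, since Gpx4 has 4 start sites in the table and Txnrd1 has 3. The MRE core was searched on both strands as TGCACNC or TGCGCNC. Mt1 had 3 matches, Mt2 had 4, Gclm had 3 and Srxn1 had 1, beside 25.7% of 32851 promoters with at least 1 match and 1.97% with at least 3. A match is a description of the letters only.

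Among the other metallothioneins, Mt4 had no read. Mt3, the brain-enriched form, had 0.0335 to 0.154 CPM in the controls and 0.233 to 0.406 CPM in PTEC DN RAR, without overlap. It did not pass the filter on low counts. Of the 7 genes in the list of other metallothioneins and the MTF1 zinc axis, 4 passed the filter. Of these, 2 fell (50%, beside 17.1% of all genes) and 0 rose. Without control 1, or without PTEC DN RAR 3, 1 gene of the list was called higher. Mtf1 went from 27.3 ± 0.318 to 21.7 ± 0.796 CPM, a fall of 0.33 on the log2 scale (SE 0.09, adjusted p = 0.0179). Slc39a14, the zinc importer ZIP14, went from 36.1 ± 6.95 to 26.3 ± 0.594 CPM, a fall of 0.45 (SE 0.14, adjusted p = 0.0308). The zinc exporter gene Slc30a1, a standard MTF1 target, had 40.4 ± 2.84 and 34.5 ± 7.17 CPM (adjusted p = 0.235), and the importer gene Slc39a10 had 36.4 ± 2.89 and 36.7 ± 5.71 CPM (adjusted p = 0.961). The calls of Mtf1 (-0.12, adjusted p = 0.494) and Slc39a14 (-0.24, adjusted p = 0.228) were lost under pan-leukocyte scaling. That of Mtf1 was also lost without PTEC DN RAR 2 (-0.30), and that of Slc39a14 without any 1 mouse other than control 1 (-0.49 to -0.37).

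The NRF2 targets among the members divided in direction. Nqo1 (ENSMUSG00000003849, chr8:107388225-107403206, minus strand), a quinone reductase often used as the readout of NRF2, had 4.28, 3.93 and 3.64 CPM in the controls, against 8.94, 7.07 and 11.4 CPM in PTEC DN RAR. The groups did not overlap, and the log2 difference was 1.21 (SE 0.20), or 2.31-fold. It was the least abundant of the 10 per length. Nqo1 gave 1.9, 2.79 and 2.0 reads per 100 Slc34a1 reads in the controls, against 1.39, 0.758 and 1.55 in PTEC DN RAR. Per 100 Umod reads it gave 0.339, 0.454 and 0.352 in the controls, against 0.179, 0.244 and 0.199 in PTEC DN RAR. Relative to either marker, all 3 PTEC DN RAR mice lay below the controls. The part of tubular RNA in the level of Nqo1 was not tested.

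Gclm (ENSMUSG00000028124, chr3:122245557-122270732), the modifier subunit of glutamate-cysteine ligase, which makes the first step of glutathione synthesis, had 105, 90.6 and 85.8 CPM in the controls, against 60.2, 53.4 and 73.4 CPM in PTEC DN RAR. The groups did not overlap, and the log2 difference was -0.59 (SE 0.13), or 0.666-fold. Txnrd1 (ENSMUSG00000020250, chr10:82833951-82897712) had 141, 149.6 and 158 CPM in the controls, against 103, 97.4 and 106 CPM in PTEC DN RAR. Its groups were each narrow and apart, with a log2 difference of -0.55 (SE 0.08), or 0.683-fold. Under pan-leukocyte scaling the log2 differences were -0.37 for Gclm and -0.34 for Txnrd1, where the median of all genes was 0.24. Srxn1 (ENSMUSG00000032802, chr2:152105516-152111376), sulfiredoxin, which restores overoxidized peroxiredoxins, had 57.3, 49.9 and 50.1 CPM in the controls, against 42.4, 34.9 and 51.3 CPM in PTEC DN RAR. PTEC DN RAR 3 lay within the control range, and the log2 difference was -0.29 (SE 0.14), or -0.07 under pan-leukocyte scaling. Reads over Gclm and Txnrd1 share their loci with other annotated genes (Gm17494 and Gm6061 at Gclm, and Gm38560, Gm47073 and Eid3 at Txnrd1).

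The ARE core was searched on both strands as TGACNNNGC. Forms with TGAG in place of TGAC, such as TGAGTCAGC in the Srxn1 window, were not searched. Matches occurred in 4 of the 15 promoter windows of the members (for Txnrd1 in 1 of its 3), beside 12.4% of the 32851 promoters. The matches are shown, core in capitals with 10 bases on either side, because they occurred near start sites of members with lower levels (Gclm and Txnrd1) and with overlapping levels (Srxn1 and Mt2).
Gclm: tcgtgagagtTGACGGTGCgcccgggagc
Txnrd1: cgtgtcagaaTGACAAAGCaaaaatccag
Srxn1: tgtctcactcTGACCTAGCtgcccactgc
Mt2: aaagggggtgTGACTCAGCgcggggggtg

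These lie at chr3:122245413-122245441 (minus strand), chr10:82859104-82859132 (minus), chr2:152105542-152105570 (minus) and chr8:94172529-94172557 (plus) on GRCm38.p6. The window of Nqo1 does not hold these letters, which says nothing about sites farther away, and the same applies to Gpx1, Gpx3, Gpx4 (all 4 windows), Gpx6 and Mt1.

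Of 12 regulators of NRF2, 4 fell (33.3%, beside 17.1% of all genes) and 1 rose (8.33%, beside 23.6%), with a median log2 difference of -0.23 (-0.02 under pan-leukocyte scaling, with 1 lower and 1 higher). Nfe2l2, which encodes NRF2, went from 373 ± 32.0 to 254 ± 11.2 CPM, a fall of 0.56 on the log2 scale (SE 0.09, adjusted p = 0.00257, and 0.0375 under pan-leukocyte scaling). Bach1 went from 214 ± 10.7 to 153 ± 12.5 CPM, a fall of 0.49 (SE 0.09, adjusted p = 0.00406), as did Dpp3, which competes with NRF2 for KEAP1, from 96.5 ± 3.18 to 78.5 ± 2.11 CPM (adjusted p = 0.0138). Keap1 had 68.5 ± 6.10 and 58.2 ± 2.39 CPM and did not pass the test (-0.23, SE 0.09, adjusted p = 0.0665), but passed with DESeq2 (-0.27) and without control 2 (-0.31). Nfe2l1, the related factor NRF1, rose from 175 ± 7.71 to 246 ± 14.4 CPM (0.49, SE 0.08, adjusted p = 0.00274). Cul3, the ligase scaffold that works with KEAP1, went from 95.0 ± 11.2 to 74.8 ± 5.52 CPM (adjusted p = 0.032), a call lost without 4 of the 6 mice taken singly (controls 2 and 3 and PTEC DN RAR 1 and 2, -0.36 to -0.29) and also with scaling by library size only (-0.34). Under pan-leukocyte scaling the calls of Bach1 (-0.27), Dpp3 (-0.09) and Cul3 (-0.13) were lost.

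The other NRF2 targets divided in direction too, and those that fell were mostly the more abundant. Of 35 listed genes 33 passed the filter, of which 13 fell and 9 rose, that is 39.4% and 27.3% beside 17.1% and 23.6% of all genes. The 13 that fell had 25.9 to 1427 CPM in Cre– controls (median 245), and the 9 that rose had 3.70 to 53.4 CPM (median 7.27). The median over the 33 was -0.27, and -0.07 under pan-leukocyte scaling, with 9 lower and 9 higher. Hmox1, heme oxygenase 1, went from 1238 ± 375 to 449.7 ± 137 CPM (-1.46, SE 0.27, adjusted p = 0.00372). Slc7a11, the cystine importer that supplies glutathione synthesis and that the study also lists among macrophage polarization genes, went from 25.9 ± 6.66 to 11.3 ± 1.5 CPM (-1.19, SE 0.19, adjusted p = 0.00213). Pgd, an NADPH-producing enzyme of the pentose phosphate pathway, went from 451 ± 14.7 to 267 ± 30.0 CPM (-0.76, adjusted p = 0.001), and the glutathione-conjugate exporter gene Abcc1 from 161 ± 2.47 to 93.6 ± 21.0 CPM (-0.78, adjusted p = 0.00405). Gsr, Txn1, Prdx1, G6pdx, Taldo1, Ugdh, Abcc3, Ftl1 and Esd also fell. Beside these falls and the lower levels of Gclm and Txnrd1, mean log2 CPM differed by -1.05 for monocyte markers, -0.81 for neutrophil markers, -0.19 for pan-leukocyte genes and 0.00 for macrophage markers, and Itgam by -0.64. Their part in the falls was not tested.

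The 9 that rose were Gclc, Me1, Gsta2, Gsta3, Gsta4, Gstm2, Abcc2, Abcc4 and Ephx1. Gsta4, a glutathione S-transferase for lipid aldehydes, went from 3.70 ± 0.837 to 11.9 ± 3.17 CPM (1.69, SE 0.24, adjusted p = 0.0013). Me1, malic enzyme, went from 7.27 ± 1.16 to 18.4 ± 4.43 CPM (1.34, SE 0.20, adjusted p = 0.00139), and Abcc2, the apical transporter MRP2 of the proximal tubule, from 14.2 ± 6.16 to 33.2 ± 8.94 CPM (1.22, SE 0.30, adjusted p = 0.0122). Gstm2 rose by 1.32, and Gstm1, Gstm4 and Gstp1, other transferases of the list, did not pass the test. Gclc encodes the catalytic subunit of the enzyme whose modifier is Gclm, and had 53.4 ± 6.31 and 70.1 ± 10.6 CPM (0.39, SE 0.13, adjusted p = 0.0395), so that the subunits differed in sign. Gclc was picked after its value was seen, its groups overlapped, and its call was lost without control 2 (0.30), control 3 (0.30), PTEC DN RAR 1 (0.40) or PTEC DN RAR 3 (0.23). The summed level of proximal tubule markers was at 992–1325 and 3082–4769 CPM beside these rises, and its part in them was not tested. Counts of Ftl1, Gsta2 and Gstp1 are uncertain, since these genes share 78.9%, 64.2% and 62.3% of their 50-base stretches with other genes. The shares were 26.5% for Me1, 23.1% for Gstm1 and between 7.6% and 14.1% for Gstm2, Prdx1, Taldo1, G6pdx and Esd.

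**Figure D4:**
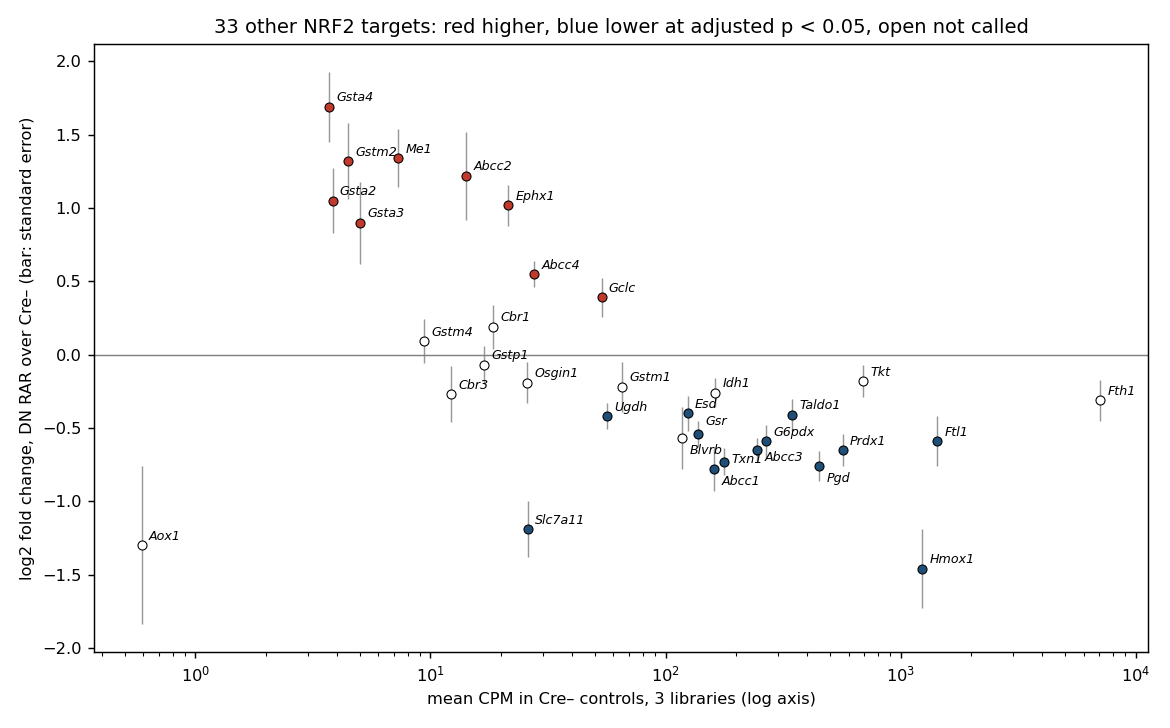
Log2 fold change of the 33 other NRF2 targets (vertical axis, bars are standard errors) against their mean CPM in the 3 Cre– controls (log axis), with red for higher, blue for lower and open symbols for genes that did not pass the test. The 9 higher genes lie at 3.70 to 53.4 CPM and the 13 lower genes at 25.9 to 1427 CPM.

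Of 26 genes of glutathione synthesis, transfer and breakdown tested, 13 rose and 1 fell (50% and 3.85%, beside 23.6% and 17.1% of all genes), with a median of 0.44. Gstt1 went from 17.9 ± 7.13 to 47.1 ± 7.40 CPM (1.39, SE 0.25, adjusted p = 0.00333), Mgst3 from 18.7 ± 4.34 to 47.4 ± 10.6 CPM (1.34, SE 0.20, adjusted p = 0.00163), and the transferase genes Gstt2 (1.34) and Gstt3 (1.24, with 26% of its 50-base stretches in other genes) rose too. The gene that fell was Glrx, glutaredoxin 1, from 85.9 ± 4.87 to 56.2 ± 3.89 CPM (-0.61, SE 0.09, adjusted p = 0.0013). Ggt1, gamma-glutamyltransferase of the proximal tubule brush border, which was picked after its value was seen, went from 28.2 ± 2.85 to 65.9 ± 8.47 CPM (1.23, SE 0.12, adjusted p = 0.000305). Beside these rises, the summed level of proximal tubule markers was 992–1325 CPM in Cre– controls and 3082–4769 CPM in PTEC DN RAR, and that of thick ascending limb and distal tubule markers 1181–1613 and 4173–7990.3 CPM, and their part in the rises was not tested. The number that fell was 2 with limma-voom, library size only, no filter or the replicate block and 3 with DESeq2, and 3 without PTEC DN RAR 3 or 2 without PTEC DN RAR 1 or control 2.

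Of 19 thioredoxin, peroxiredoxin, dismutase and related genes, 6 rose and 2 fell (31.6% and 10.5%, beside 23.6% and 17.1% of all genes), with a median of 0.18. Under pan-leukocyte scaling 10 rose and 1 fell. Sod3, the extracellular superoxide dismutase, went from 18.9 ± 3.65 to 60.2 ± 8.07 CPM (1.67, SE 0.16, adjusted p = 0.000284), and the methionine sulfoxide reductases Msrb3 (1.07) and Msrb2 (0.71) rose. Prdx4, the peroxiredoxin of the endoplasmic reticulum, fell by 0.54 (adjusted p = 0.0113), a call lost under pan-leukocyte scaling (-0.33, adjusted p = 0.0941), and Sesn1 fell by 0.55 (adjusted p = 0.00606). The proximal tubule markers (992–1325 against 3082–4769 CPM) and endothelial markers (78.3–115 against 228–276 CPM) that were higher beside these rises and those of the next list were not tested for their part in them.

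Of 21 other selenoproteins and genes of selenocysteine insertion, 4 rose and 3 fell (19.0% and 14.3%, beside 23.6% and 17.1% of all genes), with a median of -0.17 that was 0.04 under pan-leukocyte scaling. The number that fell was 1 under that scaling, where the call of Selenof (-0.19, adjusted p = 0.247) was among those lost, and 5 with DESeq2. Dio1, the thyroxine deiodinase of the proximal tubule, went from 1.09 ± 0.046 to 5.74 ± 1.95 CPM (2.39, SE 0.28, adjusted p = 0.000554). Msrb1, a selenoprotein that repairs oxidized methionine, went from 172 ± 29.7 to 112 ± 8.71 CPM (-0.62, SE 0.13, adjusted p = 0.00676), a call lost under pan-leukocyte scaling (-0.42, adjusted p = 0.0683). Without control 2 the counts were 2 higher and 5 lower, and without control 3 they were 2 higher. Over the 7 pathway lists, 33 of 117 genes tested rose (28.2%, beside 23.6% of all genes) and 25 fell (21.4%, beside 17.1%), with a median of -0.08. Under pan-leukocyte scaling 41 rose and 13 fell, and the median was 0.12.

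**Figure D5:**
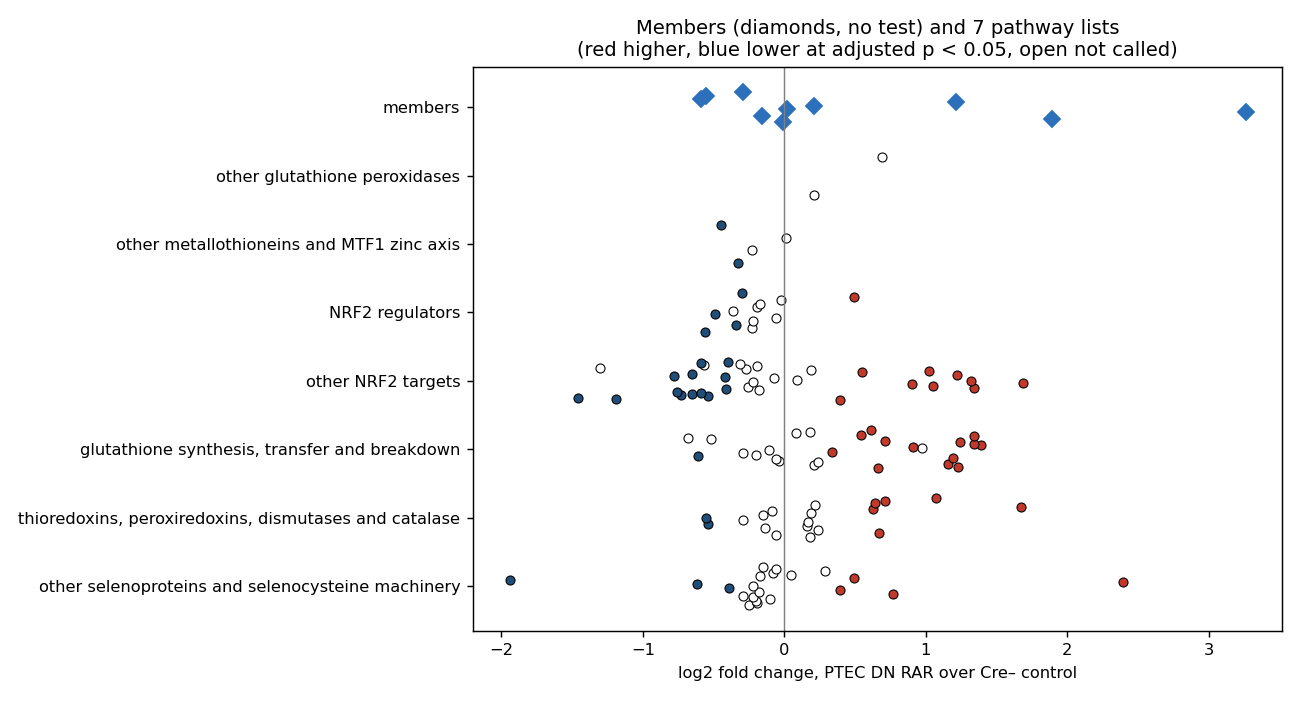
Log2 fold change (PTEC DN RAR over Cre– control) of the 10 members (diamonds, no test) and of each tested gene of the 7 pathway lists, with red for higher, blue for lower and open symbols for genes that did not pass the test. Gpx6 (3.26), Gpx3 (1.89) and Nqo1 (1.21) lie to the right and Gclm (-0.59) and Txnrd1 (-0.55) to the left of the line at 0, and the glutathione list has 13 higher and 1 lower.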

How the data were processed

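CD11B+ kidney cells gave 6 RNA-Seq libraries. The authors deposited raw counts of reads per Ensembl gene. The submitters' processing notes name GRCm38, STAR 2.5.0a, HTSeq 0.6.1, edgeR and limma. The annotation release and strand setting are not given in the sources used here. Entries for alignments to several places (42.93% to 47.75%), on no gene (2.39% to 3.97%) or on several genes (0.46% to 0.53%) were left out of library sizes and tests. The percentages are shares of all counts in the count table, and the first entry is labeled as alignments, not as reads.

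The table has 46612 gene lines, and 9 repeated lines with equal counts were collapsed. Exon lengths and coordinates came from GENCODE M21, which held 46005 of 46603 identifiers (98.72%). The filter on low counts was filterByExpr and the scaling TMM. The quasi-likelihood test of edgeR 4.0.16 (glmQLFit, glmQLFTest) was run in R 4.3.3, and p values were adjusted by Benjamini-Hochberg over the 15440 genes kept, with a threshold of 0.05. Scripts were tested on simulated data. Libraries of a genotype differed by more than counting noise (chi-square per degree of freedom of at least 27.1), so none was taken for a library entered again. The labels number 3 samples in each genotype, and each was taken as 1 mouse. Pooling is not described in the sources used here, so p values measure only the spread between these samples. Intervals from counting alone were not used, since reads are not independent molecules, and the error given is the spread between mice. With 3 mice against 3, an exact permutation test of a marker list mean cannot go below p = 0.1.

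Members and gene lists were chosen with earlier results of these data known, and results of the lists are therefore not independent of that knowledge. Genes named were the 10 members, Nfe2l2, Keap1, Bach1 and Mtf1, up to 4 genes in each direction from each list with adjusted p under 0.05 and a mean of at least 1 CPM, the 5 genes most correlated with Gpx3 and with Gpx6, Itgam, Slc34a1, Lrp2 and Umod. Gclc and Ggt1 were added after their values were seen. Gpx7, Gpx8, Slc30a1 and Slc39a10 were named as the tested genes of small lists that did not pass, and other genes as members of a count. Alternatives were library size or pan-leukocyte scaling in place of TMM, no filter, at least 10 counts in every library, DESeq2 1.42.0, limma-voom 3.58.1, a replicate block, a prior count of 0.25 in place of 2 for marker means, and leaving out each mouse. Promoters came from RefSeq (GRCm38.p6). Figures were drawn with matplotlib 3.10.9 in Python 3.11 from tables made with pandas 2.3.3, scipy 1.17.1 and numpy 2.4.6.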

Additional observations from a re-analysis of the deposited data

How the results depend on the processing

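No member changed sign among the settings tried except Gpx1, Gpx4, Mt1 and Mt2, whose log2 differences ranged from -0.11 to 0.19, -0.37 to 0.04, -0.17 to 0.23 and -0.12 to 0.44. Gpx3 ranged from 1.71 to 2.14, Gpx6 from 3.00 to 3.49, Nqo1 from 0.97 to 1.43, Gclm from -0.76 to -0.37, Txnrd1 from -0.62 to -0.34 and Srxn1 from -0.48 to -0.07. Pan-leukocyte scaling was the setting that moved the main counts by over 1.5 times: it left 727 of all genes lower in place of 2636 and 13 of the other pathway genes lower in place of 25. It moved the difference in mean log2 CPM of macrophage markers to 0.21 (from 0.00), of monocyte markers to -0.85 (from -1.05) and of pan-leukocyte genes to 0.01 (from -0.19). That scaling is built to set the pan-leukocyte genes equal. Leaving out 1 mouse gave 2433 to 3699 genes higher and 1874 to 2824 lower, and 25 to 35 other pathway genes higher and 20 to 30 lower. Marker differences without 1 mouse ranged from -0.05 to 0.10 for macrophages, -1.15 to -0.94 for monocytes and -0.24 to -0.12 for pan-leukocyte genes. Deviations of same-numbered mice from their group means had correlations of -0.01, 0.21 and 0.03, of which 1 was above 0.1, and the numbers were not taken to pair the mice. A replicate block gave 3612 genes higher and 2606 lower, and 33 and 28 other pathway genes, and changed no call of a named gene. Calls of Txnrd3, Selenoo, Sephs2 and Selenof, named by the same rule, were lost when 4, 5, 2 and 1 of the 6 mice were left out singly. RNA of myeloid cells and of tubular cells in the same preparation cannot be told apart. Gpx2, Gpx5 and Mt4 had no reads, which allows up to 0.101 CPM in the shallowest library.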
